A study of Homo sapiens with 2 samples.

Results

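Caveolae are small flask-shaped pits of the plasma membrane. The genes described here belong to families that encode their coat or proteins that bend or anchor the pit, though EHD1 and EHD4 act on endosomes. The genes were taken by symbol from the array's probe annotation, as 10 genes of the caveolin (CAV1, CAV2), cavin (CAVIN1, CAVIN2, CAVIN3), EHD (EHD1, EHD2, EHD4) and PACSIN (PACSIN2, PACSIN3) families, out of 14884 named genes. The annotation named 7 of the 10, each through 1 probe set. CAV1, CAV2 and CAVIN3 are unnamed here and were not analysed. The cells were A549, an established human lung adenocarcinoma line, kept for 4 h in either static or stretch culture. The title of the stretched sample swaps the last digits of the line's name, and its group and line were taken from the source name. No genetic change or added agent is given for either group, and each culture condition was read on 1 Affymetrix array. The amplitude, frequency and substrate of the stretch are not given in the sources used here.

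Caveolins insert into the inner leaflet of the membrane and assemble the coat together with cavins, soluble proteins that form an outer layer and leave the membrane when caveolae flatten. EHD proteins are ATPases that form rings at the caveola neck or on recycling endosomes, and PACSINs (also called syndapins) carry a curved F-BAR domain that shapes the membrane. Caveolae are known for flattening when membrane tension rises, which gives the cell spare membrane, and in the lung endothelial and flat alveolar epithelial cells carry them.

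All 7 measured genes had a higher signal on the stretched than on the static array as deposited. The log2 differences (stretch minus static) ran from 0.30 for EHD2 to 2.65 for CAVIN1, with a median of 1.34. At a threshold of 1.5-fold, 6 of the 7 were higher and 0 lower, and 5 also passed 2-fold. Of the 5, CAVIN1, EHD4 and PACSIN2 passed 2-fold under quantile normalization and the loess on level too, where CAVIN2 stood at 0.96 and 0.99 and EHD1 at 0.73 and 0.79, and 6.45% and 7.2% of all genes passed. Among the 10981 named genes that passed the level filter, which asks for a signal of at least 2.52 on one of the arrays, 27.7% were higher by 1.5-fold or more and 12.3% by 2-fold or more, while 8.90% and 2.50% were lower by these folds. The median difference over the 10981 genes was 0.20, and 64.64% of them had a difference of 0 or more. All 7 passed this filter. With 1 array per condition there is no replicate error and no test, so every difference compares these arrays and not the conditions. As the RNA came from whole cultures, more cells that express a gene and more of its RNA per cell cannot be told apart.

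**Figure D1:**
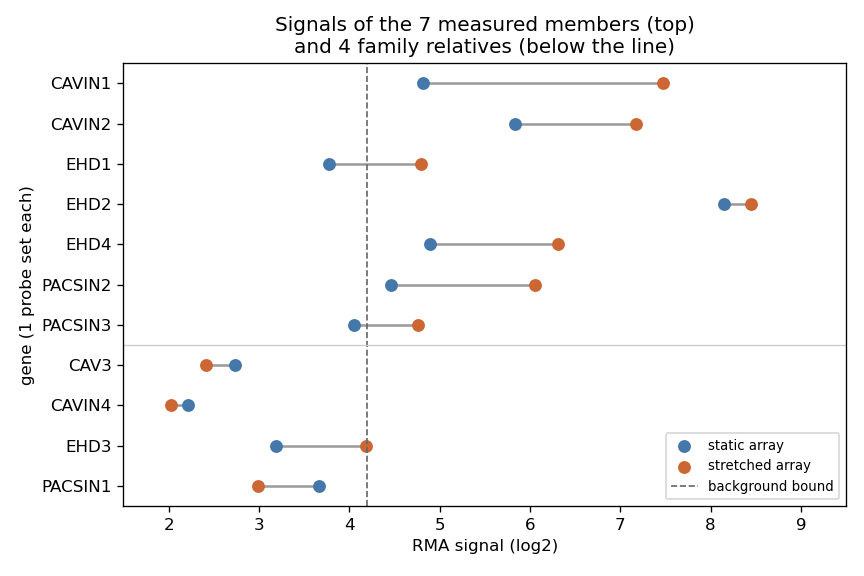
RMA signal (log2, horizontal axis) of each gene on the static array (blue) and the stretched array (orange), 1 probe set and 1 array per point; the dashed line is the background bound of 4.2. The 7 measured members, above the grey line, all lie further right on the stretched array in these deposited values. Of all genes past the level filter, 64.64% have a difference of 0 or more. The 4 relatives of the same families lie left of the bound on both arrays.

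The direction of smaller differences depends on how the arrays are scaled to each other. As deposited, the sorted values of both columns differed by up to 0.45, so the arrays do not share 1 distribution. Of the genes at least 1.5-fold apart, 75.7% were higher under stretch as deposited, 83.7% after centring on medians, 60.3% once a loess curve on level was subtracted, 53.9% with quantile normalization, and 40.0% with centring on 6 reference genes, where 1573 were higher against 2356 lower. The 6 reference genes themselves differed by values from -0.22 to 1.72, and 2 of them were at least 1.5-fold higher, so they give no firm zero. The median of the 10981 genes moved by -0.34 under the last scaling, by -0.21 under quantile normalization and by -0.16 under the loess. The members are therefore also given relative to that median below. A background bound of 4.2 (log2 signal) was set at the 95th percentile of the signals of 22 genes of unrelated tissues, whose differences ran from -0.85 to 0.64. Among the 6671 named genes that reached this bound on either array, 38.8% were higher by 1.5-fold or more and 5.62% lower. Their median difference was 0.41, so the shares over all 10981 genes include many genes near background.

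Epithelial markers were read as a guide to the cell type, and those named here do not identify the line. Of 16 epithelial genes, 7 were named, and KRT18 had the highest signal of them, at 10.29 under static conditions and higher by 0.71 under stretch. Of the 6 past the level filter, 4 (66.7%) were higher by 1.5-fold or more and 1 lower, beside 27.7% and 8.90% of all genes. KRT7 was higher by 2.15, and EPCAM was the lower gene (-0.59). KRT19 and CLDN4 lay below the background bound on both arrays. Since caveolae abound in endothelial cells, fibroblasts, muscle and fat, markers of those cells were read as well. All 6 named endothelial markers, PECAM1 and VWF included, and all 4 named adipocyte markers lay below the bound on both arrays, with differences from -0.52 to 0.38 and from -0.08 to 0.02. Of the 4 named fibroblast and muscle markers, DES lay above it, at 4.62 and 4.39, and the others below. Of 4 named leukocyte markers, NKG7 and CD163 lay below the bound, CD14 went from 5.13 to 5.53 and CD68, a lysosomal protein that is not limited to leukocytes, from 7.51 to 8.58. The part of these marker differences in the results was not tested.

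Promoter sequences are shown for the measured genes that have them. This sets CAVIN2, EHD1, EHD4 and PACSIN2, at least 2-fold higher as deposited (EHD1 only just), beside EHD2, whose difference was 0.30. RefSeq windows of GRCh38.p14 were held for 7 of the 10 genes, 16 windows in all, with 6 for PACSIN2 alone. CAVIN1, CAVIN3 and PACSIN3 have none here. The 250 bases before each start were searched on both strands for GGAATG (the element bound by TEAD factors, the partners of YAP), TGACTCA (AP-1), the CArG box (bound by SRF), the NF-κB consensus, GGGCGG (GC box), CCAAT and TATAAA. Below are the last 125 bases before the start, 5′ to 3′ along the gene, in lower case with every match in capitals.
CAVIN2 (minus strand, chr2:191847089-191847213): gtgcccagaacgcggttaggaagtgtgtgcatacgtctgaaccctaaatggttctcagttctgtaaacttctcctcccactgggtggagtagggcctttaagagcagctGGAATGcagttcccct
EHD1 (minus strand, chr11:64878622-64878746): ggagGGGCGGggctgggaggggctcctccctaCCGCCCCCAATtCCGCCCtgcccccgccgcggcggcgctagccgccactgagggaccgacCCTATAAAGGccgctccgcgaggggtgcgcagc
EHD4 (minus strand, chr15:41972558-41972682): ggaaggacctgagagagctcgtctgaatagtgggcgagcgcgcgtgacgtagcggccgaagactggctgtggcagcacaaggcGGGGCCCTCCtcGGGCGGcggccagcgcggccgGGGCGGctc
EHD2 (plus strand, chr19:47713297-47713421): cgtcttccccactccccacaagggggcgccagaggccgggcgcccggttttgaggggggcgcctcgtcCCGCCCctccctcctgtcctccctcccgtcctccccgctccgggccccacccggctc
PACSIN2, inner start (minus strand, chr22:42959900-42960024): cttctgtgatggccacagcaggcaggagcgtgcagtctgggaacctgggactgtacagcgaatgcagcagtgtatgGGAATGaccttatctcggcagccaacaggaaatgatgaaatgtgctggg
PACSIN2, outermost start (minus strand, chr22:43015150-43015274): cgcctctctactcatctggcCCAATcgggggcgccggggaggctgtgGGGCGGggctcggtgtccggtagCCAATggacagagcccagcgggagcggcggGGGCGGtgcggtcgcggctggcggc

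The promoter of CAVIN2 has GGAATG at bases 16 to 11 before the start and no other match. Of the 2 EHD1 windows, the one shown holds a CArG box at bases 33 to 24 which overlaps a TATAAA at 31 to 26, with GC boxes and a CCAAT further out, and the other holds no match. Before the outermost PACSIN2 start lie CCAAT and GC boxes, while the inner start has GGAATG at bases 49 to 44. This same GGAATG, whose first base is at position 42959948, also lies in the windows of 2 other PACSIN2 starts. EHD4 and EHD2 share the GC box. Over the 16 windows, GGAATG was found in 5 (of CAVIN2 and PACSIN2), the CArG box in 1, the NF-κB consensus in 4 (of CAV1, EHD4 and PACSIN2), the GC box in 9, CCAAT in 3, TATAAA in 1 and TGACTCA in 0. Among all 35116 RefSeq promoter windows, the shares were 11.9% for GGAATG, 1.16% for the CArG box, 9.96% for the NF-κB consensus, 42.6% for the GC box, 32.0% for CCAAT, 10.7% for TATAAA and 4.2% for TGACTCA. Windows of 1 gene overlap, and which start A549 cells use was not measured. A match describes the letters and is no evidence that a factor binds.

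Both measured cavins were at least 2-fold higher under stretch as deposited. CAVIN1 (formerly PTRF), the cavin without which caveolae do not form, read 4.82 in static and 7.47 in stretched cells, 2.65 higher on the log2 scale or 6.28-fold. It ranked 26th of the 10981 genes by difference. Because the spread of differences varies with signal, it was also set beside the 1523 genes whose mean signal lay within 0.5 of its own, of which 10 (0.657%) had a difference at least as large, itself included. CAVIN2 (SDPR), a cavin that binds phosphatidylserine and can make caveolae extend into tubules, went from 5.83 to 7.17, a difference of 1.34 or 2.53-fold. Of 1305 genes of like signal, 8.35% had a difference at least as large. Both cavins were above the background bound on both arrays. The difference of CAVIN1 exceeded that of CAVIN2 by 1.31, a gap that centring the arrays does not alter.

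The EHD genes divided. EHD2, the ATPase that sits at the caveola neck and holds caveolae at the surface, read 8.15 in static and 8.45 in stretched cells. Its difference of 0.30 (1.23-fold) equals the median of genes of like signal, which was 0.30, and 50.2% of those 404 genes had a difference at least as large. Under centring on reference genes the sign of EHD2 turned, to -0.04. EHD4, which acts on endosomes and can also reach caveolae, went from 4.89 to 6.31, a difference of 1.42 or 2.68-fold, and 8.42% of 1805 genes of like signal matched or exceeded it. EHD1, an ATPase of the recycling endosome, went from 3.78 to 4.79 (1.01, 2.01-fold), and 15.3% of 2231 genes of like signal had a difference at least as large. The static value of EHD1 lay below the background bound, where RMA signals are compressed. The difference of EHD4 exceeded that of EHD2 by 1.12. EHD1 lies just past the 2-fold line.

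Both PACSIN genes had higher signals under stretch. PACSIN2 is the widely expressed F-BAR protein that bends the caveolar membrane. It read 4.46 in static and 6.06 in stretched cells, a difference of 1.60 or 3.03-fold, second to CAVIN1 among the 7. Of 1964 genes of like signal, 5.6% had a difference at least as large. PACSIN3, best known from muscle, where it takes part in caveola formation, went from 4.05 to 4.76 (0.71, 1.64-fold), and 29.4% of 2170 genes of like signal matched or exceeded this. Its static value lay below the background bound, and its place past the 1.5-fold line was lost under quantile normalization (0.40), the loess (0.47) and reference gene centring (0.37).

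**Figure D2:**
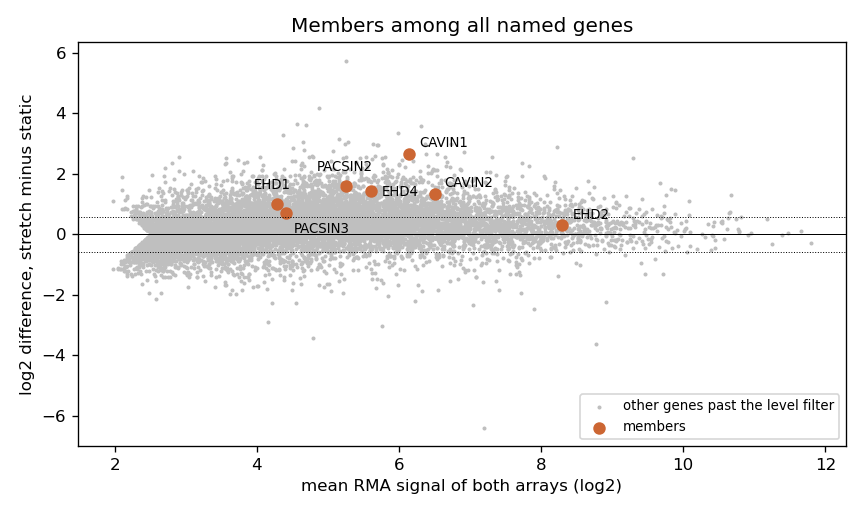
Each point is a named gene past the level filter, with the mean RMA signal of both arrays (log2) on the horizontal axis and the log2 difference, stretch minus static, on the vertical axis; dotted lines mark 1.5-fold. The 7 members (orange) all lie above 0, CAVIN1 at 2.65 near the upper edge of the cloud and EHD2 at 0.30 in its middle. Of all genes shown, 64.64% lie at 0 or above.

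The order of the 7 differences was CAVIN1, PACSIN2, EHD4, CAVIN2, EHD1, PACSIN3 and EHD2. Between neighbours in this order, the gaps were 1.05 from CAVIN1 to PACSIN2, 0.18 from PACSIN2 to EHD4, 0.08 from EHD4 to CAVIN2, 0.33 from CAVIN2 to EHD1, 0.30 from EHD1 to PACSIN3 and 0.41 from PACSIN3 to EHD2. No replicate spread exists to set these gaps against, so which neighbours differ was not tested. Relative to the median of the 10981 genes, CAVIN1 stood 2.45 higher as deposited and from 2.26 to 2.45 higher over the 4 other scalings, and PACSIN2 stood 1.40 higher as deposited and at least 1.21 higher. For EHD2 this value was 0.10 as deposited and -0.02 after the loess. The median of the 7 lay 1.14 above that of all genes as deposited and 0.95 above it after the loess. CAVIN1, CAVIN2, EHD1, EHD4 and PACSIN2 were at least 1.5-fold higher under each of the 5 scalings. The share of all genes at least 1.5-fold higher was 27.7% as deposited and 32.9% after centring on medians. It was 18.5% after the loess, 16.5% under quantile normalization and 14.3% under reference gene centring.

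**Figure D3:**
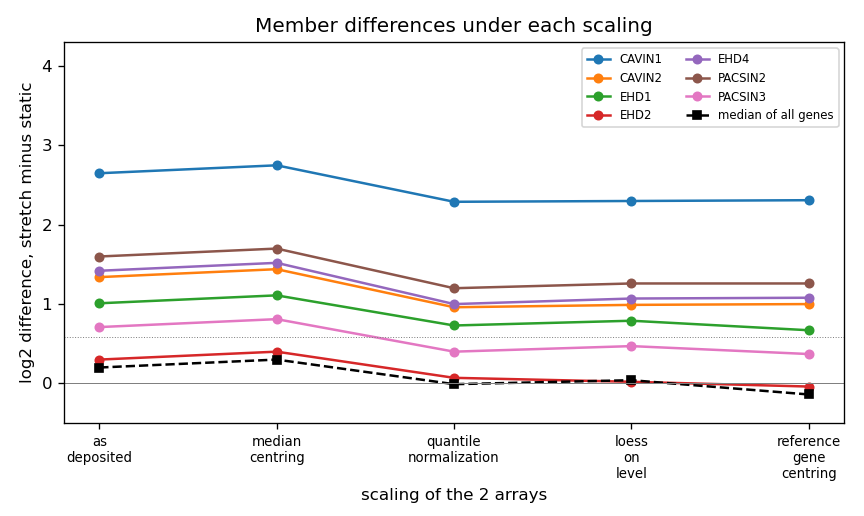
Log2 difference, stretch minus static (vertical axis), of each measured member under the deposited values and 4 other scalings of the arrays (horizontal axis); black squares give the median of the 10981 genes and the dotted line is 1.5-fold. CAVIN1 stays between 2.29 and 2.75, and EHD2 follows the median of all genes, from 0.40 down to -0.04.

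The 4 remaining genes of these families that the annotation names had low signals. CAV3, the muscle caveolin, read 2.73 and 2.41 (-0.32), and CAVIN4, the muscle cavin, 2.21 and 2.03 (-0.18), the latter under the level filter. PACSIN1, the neuronal PACSIN, read 3.66 and 2.99, a difference of -0.67. EHD3, which like EHD1 acts on recycling endosomes, read 3.19 and 4.19, a difference of 1.0 beside 1.01 for EHD1. Of 2389 genes of like signal, 9.88% had a difference at least as large as that of EHD3, beside 15.3% for EHD1. All 4 lay below the background bound on both arrays, where a signal cannot be told from background.

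Partners of caveolae showed no common direction. They comprise dynamins that cut membrane necks, flotillins of other membrane rafts, filamins and kinases that act on caveolae. Of 18 genes in this list 13 were named, of which 4 (30.8%) were higher by 1.5-fold or more and 2 lower, beside 27.7% and 8.90% of all genes. The median was 0.19, beside 0.20 for all genes. ABL2, an actin-binding tyrosine kinase, went from 4.19 to 6.72 (2.53), from a static value at the background bound; its second, dimmer probe set differed by 0.67 and the mean of both gave 1.60. ROR1, a receptor of the tyrosine kinase type that has been described as a scaffold for CAVIN1 and CAV1, went from 5.93 to 7.43 (a difference of 1.5). FLOT2 went from 5.54 to 6.63 (1.09), whereas VAMP8, a SNARE of endosomes, went from 6.41 to 5.45 (-0.96). Named after their values were seen, the dynamins DNM1 and DNM2 differed by 0.08 and 0.19, DNM3 went from 3.83 to 2.91 (-0.92, below the background bound on both arrays), and FLOT1, with 4 probe sets, by values from -0.61 to -0.35.

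Clathrin-coated pits are the other main coat of the plasma membrane. Of 30 genes for clathrin, its adaptors and accessory proteins, 17 were named, all of them adaptor or accessory proteins: no clathrin chain and no subunit of the AP-2 adaptor is named here. By 1.5-fold or more, 6 of the 17 (35.3%) were higher and 1 was lower, beside 27.7% and 8.90% of all genes, and the median was 0.40. Under quantile normalization 4 of the 17 (23.5%) passed upward, where 16.5% of all genes did. At 2-fold the count was 4 as deposited and 0 under quantile normalization, beside 12.3% and 6.45% of all genes. The 4 with the largest differences were EPN2 (1.34, from 4.84 to 6.18) and EPN1 (1.31, from 4.16 to 5.47), which are epsins that bend the pit membrane, NECAP1 (1.13, from 4.45 to 5.58), a partner of the AP-2 adaptor, and GAK (1.01, with 5.21 under stretch), a kinase of uncoating. The static values of EPN1 and GAK lay within the background range. FCHO2, an F-BAR protein of early pits, was the lower gene, at -0.84; it was chosen after its values were seen.

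Among 58 other genes with BAR, F-BAR or I-BAR domains, 47 were named and 43 passed the level filter. Of the 43, 17 (39.5%) passed 1.5-fold upward and 1 downward, beside 27.7% and 8.90% of all genes, and their median was 0.48. Under quantile normalization 8 of the 43 (18.6%) passed upward, where 16.5% of all genes did, and under reference gene centring 9 (20.9%), where 14.3% did. DNMBP (1.83, from 5.13 to 6.96), a Cdc42 activator also called Tuba, and SRGAP1 (1.78, from 6.15 to 7.93) had the largest differences. Each has a second probe set at background, and the means of both probe sets gave 0.92 and 1.01. SH3GL1, an endophilin, went from 3.38 to 5.09 (1.71), from below the background bound, and ARHGAP42 from 4.94 to 6.46 (1.52). The 3 relatives of the Cdc42-binding F-BAR family, chosen after their values were seen, went apart, with FNBP1 at 1.38, TRIP10 at 0.74 and FNBP1L at -0.63.

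Partners of EHD proteins in endosome recycling had 17 of 26 genes named. Of the 17, 8 (47.1%) passed 1.5-fold upward and 0 downward, beside 27.7% and 8.90% of all genes, and their median was 0.47. Under quantile normalization and under reference gene centring this count was 3 (17.6%), where 16.5% and 14.3% of all genes passed. RUSC2 went from 4.86 to 7.14 (2.28) and ANKFY1 (rabankyrin-5, an endosomal protein that binds EHD1) from 5.02 to 6.93 (1.91). RAB11FIP1, a Rab11 effector, differed by 1.05 and MICALL1, which brings EHD1 to tubular endosomes, by 0.88, both from static values below the background bound. The medians of these 4 lists lay between 0.19 and 0.48, and that of the 7 measured members at 1.34. Beside them, the median was 0.20 for all genes and 0.41 for the 6671 that reached the background bound. Of those 6671, 38.8% were at least 1.5-fold higher and 5.62% lower. Differences between lists were not tested, since there is 1 array per condition.

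**Figure D4:**
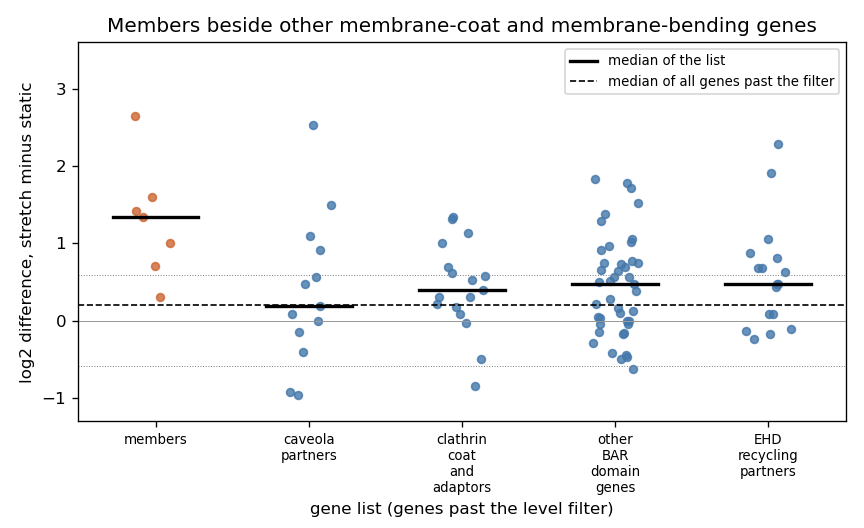
Log2 difference, stretch minus static (vertical axis), of every gene past the level filter in 5 lists; black bars are list medians, the dashed line is the median of all genes (0.20) and dotted lines mark 1.5-fold. The 7 members lie between 0.30 and 2.65. Each of the other lists, which are longer at 13 to 43 genes, also holds genes below 0.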

How the data were processed

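RNA from 1 static and 1 stretched A549 culture was read on Affymetrix arrays. The deposited table holds log2 values of 53617 probe sets, made by RMA (robust multi-array average) per the submitters' processing notes. Values ran from 0.60 to 12.7, from which the log2 scale was inferred. For software, version and chip definition, the sources used here give nothing. RMA compresses low signals and gives no detection calls. The annotation table gave 1 symbol to 16098 probe sets, several to 0 and none to 37519; symbols were updated by gene identifier through RefSeq (GRCh38.p14). The array's build is not named, so no probe coordinates are given. The probe set of highest mean stood for a gene. The level filter is the median of all values.

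Named genes were the members, the relatives in their families and, per other list, the 4 of largest absolute difference. The members and lists were chosen with earlier results of these data known. No test was possible. Counting was checked only on simulated data, with changes planted in genes of higher signal and a uniform shift between the arrays. That check does not cover changes near background. Alternatives were 4 other scalings (loess span 0.3), other level filters, a fold threshold of 2 and means of probe sets. Python 3.11.15, numpy 2.4.6, pandas 2.3.3, statsmodels 0.14.6 and matplotlib 3.10.9 were used. The number of arrays limits the precision.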

Additional observations from a re-analysis of the deposited data

How the results depend on the processing

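The median of the 7 measured members, and their counts of at least 1.5-fold higher and lower, stayed within the preset margins under every alternative run (within 0.44, the robust SD of the unrelated-tissue genes, which lie mostly at background, for values, and within 1.5 times for counts). So did the counts of caveola partners and clathrin genes. The clathrin count lay at the edge of the margin, going from 6 to 4 after the loess, quantile normalization and reference gene centring. The count of other BAR domain genes fell from 17 to 10 after the loess, 8 after quantile normalization, 9 after reference gene centring and 8 at a fold threshold of 2. The count of EHD partners fell from 8 to 5, 3, 3 and 3 under the same settings. As shares, the BAR domain genes went from 39.5% to 23.3%, 18.6%, 20.9% and 18.6%. Those of the EHD partners went from 47.1% to 29.4%, 17.6%, 17.6% and 17.6%. Beside them, the share of all genes went from 27.7% to 18.5%, 16.5%, 14.3% and 12.3%. The median of all genes is also lower under the first 3 of these settings, and the last is a stricter threshold. With probe sets averaged, ABL2, DNMBP and SRGAP1 moved by more than 0.44. No paired analysis was possible because each condition has 1 array. For the same reason no array could be left out. Signals below 4.2 limit EHD1 and PACSIN3 most.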
